A study of Schizosaccharomyces pombe with 8 samples.

Results

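The regions of the Schizosaccharomyces pombe (fission yeast) genome with the least histone H3 were taken from chromatin immunoprecipitation on tiling microarrays (ChIP-on-chip) made at the start of premeiotic S phase. A window was the running mean of 5 neighbouring probes along a chromosome, and its value was the log2 ratio of immunoprecipitated (ChIP) over input signal with the median of each array set to 0. The 1861 windows of 37227 with the lowest mean over the 4 H3 arrays (the lowest 5%) were kept and merged where they overlapped, which gave 494 H3-depleted regions. Of these, 213 lay on chromosome I, 181 on chromosome II and 100 on chromosome III, and together they covered 1268.65 kb. Because H3 chose them, their low H3 is a description and was not tested.

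All cells were h+/h+ diploids homozygous for pat1-114, a temperature-sensitive allele of the Pat1 kinase, which holds cells back from meiosis until it is inactivated by the shift to 34 °C, and they carried ade6-M210/ade6-M216. In −N meiosis the cells had been starved of nitrogen, were given nitrogen again and were collected 2 h after the shift. In +N meiosis the cells had never been starved, had been exposed to the mating pheromone M-factor, and were collected 30 min after the shift, so a difference between +N and −N also covers the pheromone, the medium and the time since the shift, which cannot be told apart here. Each of the 4 groups (H3 and H3K4Me3, that is H3 trimethylated on lysine 4, in −N and in +N) had 2 arrays from biological repeats, and replicate 1 of every group was on slide 1 and replicate 2 on slide 2.

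DNA in the nucleus is wound around nucleosomes, each built on histones H2A, H2B, H3 and H4. Promoters of active genes commonly hold a nucleosome-depleted stretch just before the transcription start, where transcription factors and RNA polymerase reach the DNA, and tRNA genes and other genes of RNA polymerase III are also known for few nucleosomes. The central domains of fission yeast centromeres are flanked by tRNA genes and carry the centromeric variant Cnp1 (CENP-A) in place of much of their H3. Trimethylation of H3 on lysine 4 is laid down by the Set1 complex and is known to peak on the first nucleosomes inside transcribed genes.

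The whole set of arrays had the following properties. The H3 ChIP signal was well above background at 84.2% to 98.5% of nuclear spots and the H3K4Me3 ChIP signal at 44.6% to 95.1%, with the lower shares on slide 1. Mitochondrial probes, whose DNA is not packaged by histones, lay at −4.62 to −3.13 relative to the nuclear median on the 8 arrays. The H3 windows of +N replicate 1 were spread more widely (SD 0.64 over all windows) than those of the other H3 arrays (0.46 to 0.52). Probe coordinates matched the reference annotation on chromosomes II and III and on chromosome I up to 3750000, so genes are named for the 430 regions there, and the other 64 regions are given by their values alone.

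Sequences of 300 bases at the deepest points of 5 regions are shown, because the account below turns on them: the region with the lowest H3 between a pair of divergent genes (ght1), the largest H3 differences between conditions (nmt1 and snoU14), a glycolytic gene whose H3K4Me3 was lower in +N (tdh1), and the region with the highest H3K4Me3 (asn1). They were read from the RefSeq genome ASM294v3 in the direction of the named gene, upstream of its annotated 5′ end, at chrIII:236094-236393 (minus strand, 899 bases before ght1), chrIII:1837893-1838192 (plus strand, 223 bases before nmt1), chrII:1307332-1307631 (plus strand, 1003 bases before snoU14), chrII:2807157-2807456 (plus strand, 139 bases before tdh1) and chrII:734714-735013 (plus strand, 14 bases before asn1). Capitals mark TATAAA on either strand, or ATGACGT (the M26 or CRE heptamer, read here as its reverse complement) in tdh1.
ght1: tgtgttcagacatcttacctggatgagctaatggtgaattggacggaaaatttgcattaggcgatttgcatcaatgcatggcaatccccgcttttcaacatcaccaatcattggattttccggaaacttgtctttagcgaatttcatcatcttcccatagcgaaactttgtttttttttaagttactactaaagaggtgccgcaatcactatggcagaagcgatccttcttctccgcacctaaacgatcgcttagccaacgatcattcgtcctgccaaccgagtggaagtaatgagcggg
nmt1: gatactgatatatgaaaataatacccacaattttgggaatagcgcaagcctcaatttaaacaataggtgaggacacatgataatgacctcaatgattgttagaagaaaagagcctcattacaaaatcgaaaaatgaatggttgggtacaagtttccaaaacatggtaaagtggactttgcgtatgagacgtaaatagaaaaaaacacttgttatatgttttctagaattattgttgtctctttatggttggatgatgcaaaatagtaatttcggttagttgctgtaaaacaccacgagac
snoU14: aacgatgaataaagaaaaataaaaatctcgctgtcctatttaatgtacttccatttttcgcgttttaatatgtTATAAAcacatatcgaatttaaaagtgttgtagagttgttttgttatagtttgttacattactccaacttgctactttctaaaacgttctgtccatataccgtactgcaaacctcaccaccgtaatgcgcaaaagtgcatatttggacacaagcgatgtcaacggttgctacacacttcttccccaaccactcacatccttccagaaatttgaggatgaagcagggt
tdh1: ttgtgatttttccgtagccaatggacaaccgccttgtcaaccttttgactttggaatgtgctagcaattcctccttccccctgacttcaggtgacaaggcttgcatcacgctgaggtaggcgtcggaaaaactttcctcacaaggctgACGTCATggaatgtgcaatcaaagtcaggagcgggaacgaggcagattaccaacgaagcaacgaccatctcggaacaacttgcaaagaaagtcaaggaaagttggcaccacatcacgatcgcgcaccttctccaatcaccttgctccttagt
asn1: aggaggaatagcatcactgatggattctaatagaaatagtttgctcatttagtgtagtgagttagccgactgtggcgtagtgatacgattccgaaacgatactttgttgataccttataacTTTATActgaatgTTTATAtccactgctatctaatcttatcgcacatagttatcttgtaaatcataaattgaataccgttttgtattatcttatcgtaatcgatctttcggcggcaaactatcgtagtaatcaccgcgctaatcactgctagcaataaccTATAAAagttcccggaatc

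The ght1 and nmt1 stretches held none of the motifs searched, the snoU14 stretch held 1 TATAAA and the asn1 stretch 3. The single probe centred in each stretch had a mean H3 of −3.77 at ght1, −1.86 at nmt1, −3.18 at snoU14, −3.48 at tdh1 and −1.98 at asn1. The H3K4Me3 of the same probes ran from −2.69 at ght1 to 1.79 at asn1. GC content also differed, from 33.7% at nmt1 to 49.3% at tdh1. Among the promoters (250 bases before to 50 after the 5′ end) of the 529 protein-coding genes whose 5′ end lay in a depleted region, 47.4% held TATAAA against 48.5% of all 4365 promoters, and 6.05% held a run of 10 A or 10 T against 6.62%. ATGACGT was found in 2.46% against 1.49%, the homolD box CAGTCACA of ribosomal protein genes in 3.40% against 2.66%, and the homolE core CCCTACCC in 0.378% against 1.70%. In the 300 bases at the centre of the lowest window of each of the 430 regions, 48.6% held TATAAA and 10.9% the run of 10 A or 10 T, against 34.9% and 4.75% at the centres of all windows, most of which lie in genes. All were searched on both strands, and the window medians of GC content were 33.9% for H3-depleted and 36.0% for all windows, but 33.3% and 33.4% where only intergenic windows were compared.

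The regions were short. Their median length was 1950 bp (range 748 to 72595 bp) against a median span of 1304 bp for a single window, 105 regions were a single window, and the median region held 3 windows. Over the lowest window of each region, H3 averaged over the 4 arrays ran from −3.76 to −1.07, with a median of −1.34. The last window inside the limit and the first outside it were both at −1.07, so the limit cut a continuous distribution. Longer regions were also deeper and had less H3K4Me3. The same H3 values set both the length and the depth of a region, so the link between these 2 follows in part from the choice. The mean H3K4Me3 of the lowest window was below 0 in 34 of 105 regions of 1 window, 88 of 179 of 2 to 3 windows, 112 of 168 of 4 to 7 windows and 37 of 42 of 8 or more.

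The depletion was present on each array. The median H3 of the 1861 windows was −1.34 and −1.26 in −N (replicates 1 and 2) and −1.63 and −1.22 in +N, while the median of all windows lay between −0.11 and −0.05. The +N array of slide 1 was the lowest and that of slide 2 the highest, so the conditions overlapped. When windows were chosen on slide 1 alone and measured on slide 2, the medians were −1.22 in −N and −1.19 in +N, and 74.2% and 74.3% of them were again in the lowest 5%. When they were chosen on slide 2 and measured on slide 1, the medians were −1.31 and −1.58, and 73.2% and 68.4% were again in the lowest 5%. On all 4 arrays, 966 windows (51.9%) were in the lowest 5%, 475 on 3 arrays, 354 on 2 and 66 on 1.

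Input signal in the windows was near that of the genome (median differences of −0.06 to 0.11 on the log2 scale over the 8 arrays), so the low ratio lay in the ChIP channel. The ChIP spots of the depleted windows were often dim. On slide 1, 58.6% (−N) and 64.1% (+N) of their H3 ChIP spots were well above background, against 83.4% and 88.4% of the spots of all windows, and on slide 2 these shares were 94.9% and 95%, against 98.3% on both arrays. How far array background limits the depth read in the lowest regions was not tested on either slide.

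**Figure D1:**
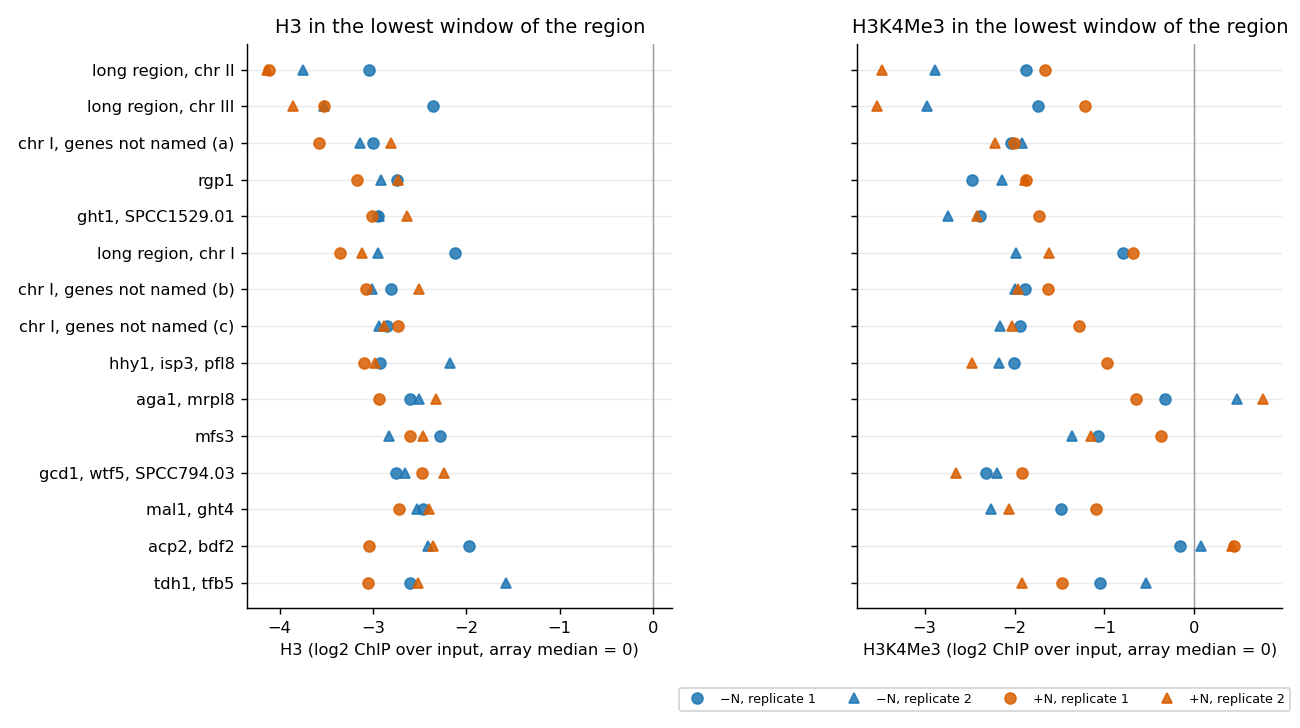
H3 (left) and H3K4Me3 (right) in the lowest window of the 15 regions with the lowest H3, as log2 ChIP over input with the array median at 0. Each point is 1 array, with colour for the condition and shape for the replicate, and the H3 points of −N and +N interleave in most regions while H3K4Me3 runs from below −3 to above 0.

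The lowest H3 of all was on chromosome II at 1601844–1647975, which held 17 tRNA genes and no protein-coding gene. H3 in its lowest window was −3.04 and −3.75 in −N versus −4.12 and −4.14 in +N, and H3K4Me3 there was −1.87 and −2.88 in −N against −1.66 and −3.47 in +N. The +N arrays were both lower for H3, but only 9 of the 20 H3 ChIP measurements in that window were well above background. The region was covered by 28 windows from 32 probes, and 1 window spanned 20465 bp as probes are sparse there. The second lowest, on chromosome III at 1068731–1141325, had 14 tRNA genes, no protein-coding gene and 12 probes in 72.6 kb. Its H3 was −2.36 and −3.52 in −N versus −3.52 and −3.86 in +N. The third region over 30 kb was on chromosome I at 3752034–3786553, in the part that was not annotated here, with H3 of −2.12 and −2.95 in −N against −3.35 and −3.11 in +N. These 3 regions lie where the centromeres of this species are known to be, and held 42 of the 1861 windows. Without them the median H3 was −1.29 ± 0.06 for −N and −1.42 ± 0.29 for +N (SD, 2 arrays each).

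Among the 15 lowest regions, 2 held genes of hexose transport, ght1 and ght4. At ght1, which encodes a hexose transporter, and its divergent neighbour SPCC1529.01 (chromosome III 234988–237985), H3 was −2.95 and −2.94 in −N versus −3.01 and −2.64 in +N. H3K4Me3 in the same window was −2.38 and −2.74 in −N against −1.73 and −2.41 in +N. All 8 values were far below the array medians and the conditions overlapped for both antibodies. At ght4, another hexose transporter gene, beside the alpha-glucosidase gene mal1, H3 was −2.47 and −2.53 in −N versus −2.72 and −2.41 in +N. The window with gcd1, wtf5 (a member of the wtf family of meiotic drive genes, whose members share sequence) and SPCC794.03 was at −2.75 and −2.66 in −N against −2.48 and −2.25 in +N. Here both +N arrays were higher, by 0.35 on average, which limma with the slide as a block did not call (adjusted p = 1).

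Other low regions differed from these in H3K4Me3. Within rgp1, the only gene the region overlapped, H3 was −2.74 and −2.92 in −N versus −3.17 and −2.74 in +N, and H3K4Me3 lay between −2.47 and −1.87. At hhy1, isp3 (a spore wall protein gene) and pfl8, H3 was −2.93 and −2.18 in −N against −3.10 and −2.98 in +N, with H3K4Me3 between −2.47 and −0.97. Between acp2 and bdf2, divergent genes, H3 was −1.97 and −2.41 in −N versus −3.04 and −2.36 in +N, while H3K4Me3 lay near the array median, from −0.17 to 0.44. The aga1 and mfs3 regions, with mean H3K4Me3 of 0.07 and −0.99, were among the 15 lowest for H3 as well. Low H3 thus went with low H3K4Me3 at some of these genes and with H3K4Me3 near the array median at others.

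Most of the regions lay between genes. Of the 430 annotated regions, the centre of the lowest window was between divergent genes in 225 (52.3%), between tandem genes in 131 (30.5%), between convergent genes in 11 (2.56%) and inside a gene in 63 (14.7%). By windows, 46.6% of the H3-depleted and 10.4% of all windows were divergent intergenic, 30.7% and 10.3% tandem, and 19.4% and 77.8% in genes. Of all divergent intergenic windows 22.0% were H3-depleted, of tandem ones 14.5%, of convergent ones 10.6% and of windows in genes 1.22%. The 5′ end of at least 1 protein-coding gene lay in 349 of the 430 regions (81.2%), and 138 regions held 5′ ends on both strands. Regions are longer than windows, and by single windows 55.6% of the H3-depleted and 48.7% of all windows held a 5′ end. The share of regions also moved with the width of the regions, from 10% for single probes and 61.7% for 3-probe windows to 97.8% with dim probes left out. The 5′ ends of 529 of 4365 genes (12.1%) lay in a region.

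Windows in wide intergenic regions were more often H3-depleted. The share of windows that were members rose from 2.47% where the distance between genes was under 500 bp to 11% at 500 to 1000 bp, 21.2% at 1000 to 2000 bp and 31.8% at 2000 to 4000 bp, and was 26.2% above 4000 bp. A window spans about as much as a short intergenic region and then also covers gene bodies. H3K4Me3 of the depleted windows fell along the same order, from a median of 0.75 (mean of the 4 arrays) under 500 bp to −1.53 above 4000 bp. The same order held over all windows, from 1.27 to −1.12, and on each of the 4 H3K4Me3 arrays the depleted windows above 4000 bp had a lower median than those under 500 bp.

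**Figure D2:**
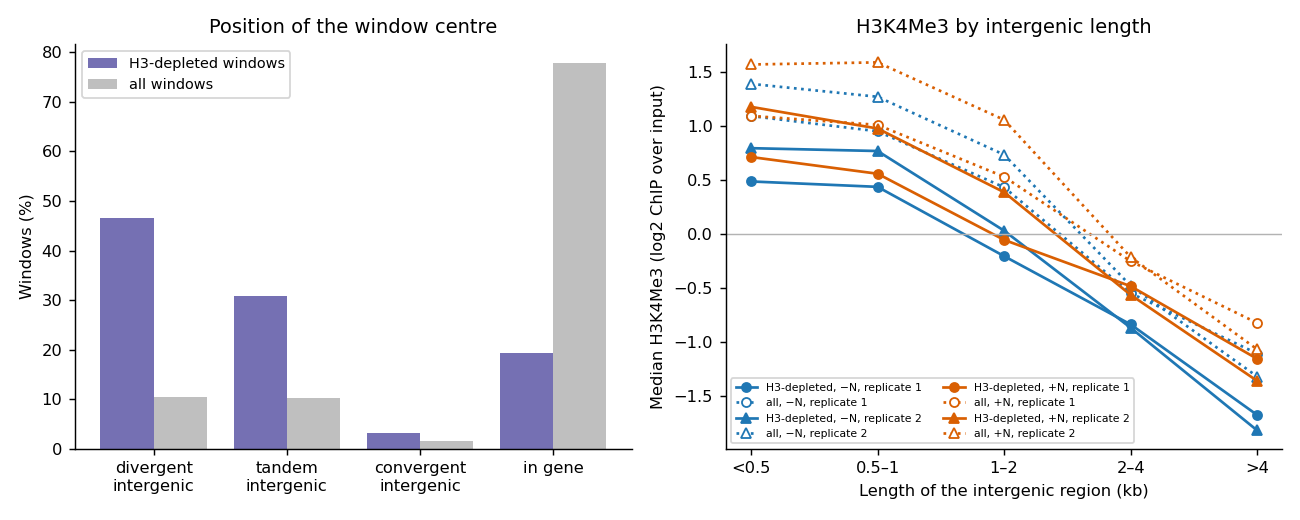
Left, percentage of H3-depleted and of all windows by the position of the window centre. Right, median H3K4Me3 (log2 ChIP over input) of H3-depleted windows (filled symbols, solid lines) and all windows (open symbols, dotted lines) by length of the intergenic region in kb, with 1 line for each array, which falls from 0.75 to −1.53 in H3-depleted windows on average over the arrays.

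Of 155 tRNA genes, 93 (60.0%) lay in a depleted region, 31 of them in the long regions of chromosomes II and III, and 27.9% of windows with a tRNA gene were H3-depleted, against 5% of all windows. Of 206 long terminal repeats (LTRs) of retrotransposons, 75 (36.4%) lay in a region, and 23.6% of windows with an LTR were H3-depleted. Of 43 rRNA genes there were 10, with 15.5% of their windows H3-depleted. Of 63 snRNA and snoRNA genes there were 10 (15.9%), with 9.24% of their windows H3-depleted. The 5% is set mostly by windows in protein-coding genes. Of windows between such genes, 22.0% (divergent), 14.5% (tandem) and 10.6% (convergent) were H3-depleted. The tRNA and LTR shares lay above all of these, the rRNA share among them, and the snRNA and snoRNA share below them. Copies of LTRs and of tRNA genes are nearly identical, so a probe beside them can stand for more than 1 copy. The region around Tf2-12, a retrotransposon, was long because 1 window bridged the element (H3 −1.57 and −1.46 in −N, −1.83 and −1.37 in +N), and that around Tf2-10 likewise.

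Protein-coding genes were grouped by lists of known function, and a gene counted where a region overlapped the stretch from 250 bp before to 750 bp after its 5′ end. Of all 4276 genes with a probe, 641 (15%) counted. Of the 14 genes of glycolysis and ethanol formation 11 did: the kinase genes hxk1, hxk2 and pgk1, the aldolase gene fba1, tpi1, tdh1 and gpd3 (triose phosphate steps), the enolase gene eno101, pdc101 (pyruvate decarboxylase) and the alcohol dehydrogenase genes adh1 and adh4. Their lowest windows ran from −2.44 at tdh1 to −1.15 at adh4, and H3K4Me3 there from −1.38 at pdc101 to −0.11 at hxk1, as means of the 4 arrays of each antibody. Single arrays were above 0 for H3K4Me3 at adh1 (both −N arrays), hxk1 (both +N arrays) and pgk1 (−N replicate 1). Of 16 genes for heat shock proteins and chaperones 9 counted, the lowest of which were ssa2 (an Hsp70, −2.36), ubi4 (polyubiquitin, −2.22) and hsp16 (a small heat shock protein, −2.04). Here H3K4Me3 was not alike, from −1.47 at hsp16 to 1.88 at bip1, the endoplasmic reticulum Hsp70.

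The other lists held fewer counted genes. Of the thiamine genes 4 of 7 counted (bsu1, pho4, thi2 and nmt1), of genes of hexose transport and glucose repression 5 of 11 (ght1, ght3, ght4, ght6 and gld1) and of translation elongation genes 2 of 3 (tef103 and tef3). Of the pheromone response list 5 of 14 did (sxa2, mfm2, map4, mam1 and ste6), of the nitrogen starvation list 3 of 9 (isp3, isp6 and ste11, the regulator of sexual differentiation), of the phosphate list 1 of 4 (pho84) and of the histone list 1 of 7 (pht1, histone H2A.Z). H3 before ste11 was −1.95 and −2.20 in −N against −2.27 and −2.10 in +N, in an intergenic region of 5020 bp, and H3K4Me3 there lay between −2.33 and −1.72. The −N and +N values of ste11 overlapped for both. Of 120 genes for cytosolic ribosomal proteins 12 (10%) counted and of 12 meiotic recombination genes 0 did. These are counts beside the 15% of all genes, with no test of the lists.

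**Figure D3:**
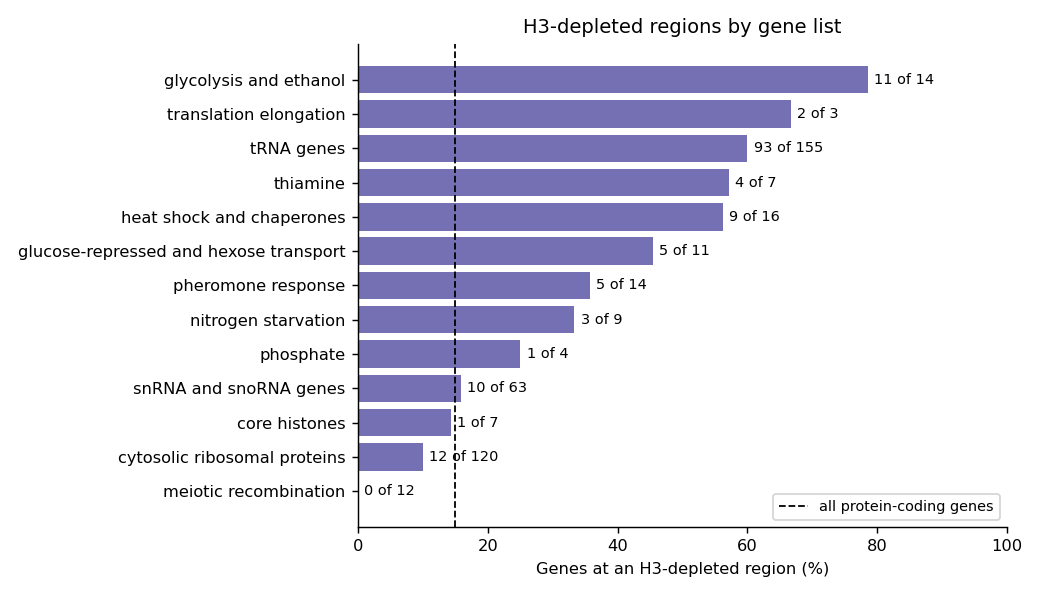
Percentage of the genes of each list that lie at an H3-depleted region, with the counts beside the bars, and the 15% of all protein-coding genes as the dashed line. For tRNA, snRNA and snoRNA genes the bar gives genes that lie in a region. Glycolysis genes stand at 11 of 14 and ribosomal protein genes at 12 of 120.

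H3K4Me3 came from other arrays than those that chose the regions. Its median in the H3-depleted windows was −0.50 and −0.31 in −N versus −0.24 and −0.09 in +N, against 0.29 and 0.44 in −N and 0.26 and 0.49 in +N over all windows. It was below the all-window median on each array. H3K4Me3 was below 0 in 52.0% to 65.8% of the depleted windows and in 40.1% to 43.0% of all windows. The fall was smaller than that of H3, so that H3K4Me3 minus H3 on arrays of the same condition and replicate was 0.91 and 1.04 in −N versus 1.52 and 1.22 in +N, against 0.49 to 0.67 over all windows. H3 enters this difference and also chose the windows, so it is a description. Over the depleted windows H3K4Me3 correlated with H3 (Pearson r from 0.36 to 0.50 in the 4 pairs of arrays), and over all windows the sign was opposite (r from −0.21 to −0.13). Neighbouring windows share probes and the arrays of a pair share a slide.

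Around the lowest windows, H3 dipped to a single trough, with mean values of −1.58 and −1.53 in −N against −1.95 and −1.49 in +N in the 250 bp before the centre, and returned to the array median by about 1.5 kb. H3K4Me3 had a trough at the same place (−0.78 and −0.52 in −N, −0.41 and −0.24 in +N in the 250 bp after the centre), between 2 shoulders near 1 kb on each side. The shoulders were above the array median on each array and the trough below it. At the 5′ ends of genes inside depleted regions, H3 at 100 bp upstream was −1.57 and −1.58 in −N versus −1.91 and −1.48 in +N, against −0.81 and −0.78 in −N and −1.07 and −0.74 in +N at the 5′ ends of other genes. H3K4Me3 at 300 bp downstream of these 5′ ends was 1.91 and 2.22 in −N versus 2.14 and 2.62 in +N, against 2.23 and 2.50 in −N and 2.47 and 3.04 in +N at other genes. At 500 bp upstream it was −0.50 and −0.20 in −N versus −0.26 and 0.06 in +N, against 0.60 and 0.86 in −N and 0.62 and 1.08 in +N at other genes. On each array H3K4Me3 was lower at the genes with a depleted 5′ end at both of these positions, with the wider gap upstream. At 700 bp downstream the order was the other way on each array, by a small margin. H3K4Me3 there was 0.80 and 0.92 in −N versus 0.67 and 0.95 in +N, against 0.78 and 0.85 in −N and 0.62 and 0.89 in +N at other genes.

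**Figure D4:**
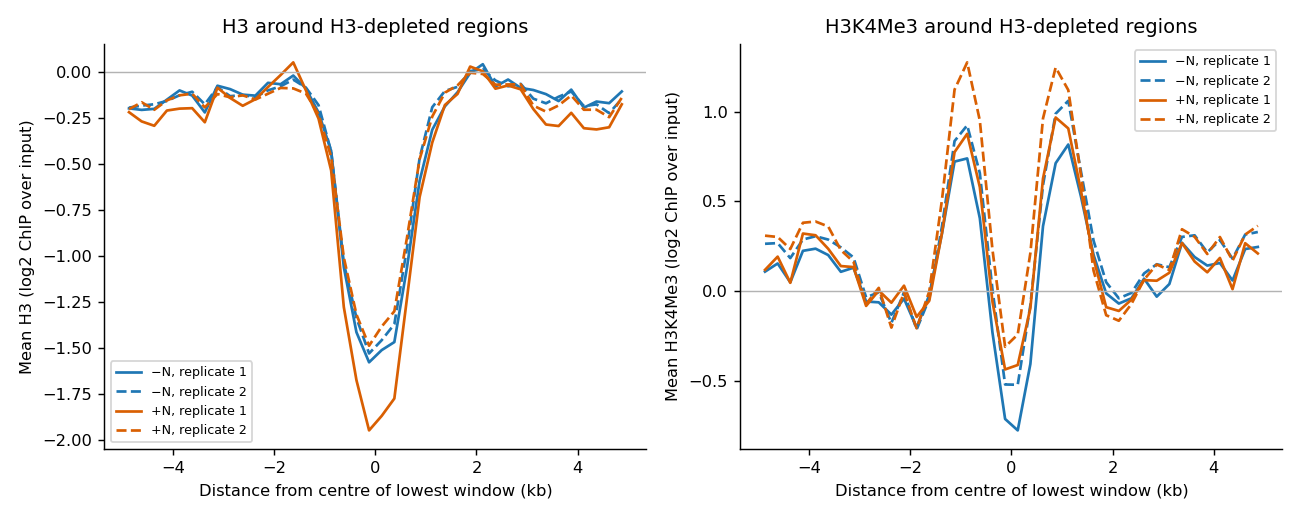
Mean H3 (left) and H3K4Me3 (right) in bins of 250 bp by distance from the centre of the lowest window of the regions, as log2 ChIP over input with the array median at 0, with 1 line per array (solid for replicate 1, dashed for replicate 2). H3 falls to between −1.95 and −1.49 at the centre, where H3K4Me3 is below 0 on each array between 2 shoulders near 1 kb.

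H3K4Me3 in the lowest window, as the mean of the 4 arrays, ranged over the regions from −2.47 to 2.52 and was above 0 in 223 of 494. The highest was between orm1, of the ORM family that restrains sphingolipid synthesis, and asn1, the asparagine synthetase gene, which are 313 bp apart. H3 there was −1.26 and −0.93 in −N versus −1.22 and −1.17 in +N, and H3K4Me3 was 2.15 and 2.57 in −N against 2.43 and 2.92 in +N. The windows with cid13, snu3 (U3 snoRNA) and tif308, with mgm101 and bpl1, and with arc5 and med20 came next among the annotated regions, with means of 2.25, 2.13 and 2.10. These 4 regions held 1 to 3 windows each, and all lay between divergent genes. At the other end, next to str3, a siderophore transporter gene, H3K4Me3 was −2.91 and −2.40 in −N versus −1.95 and −2.50 in +N, at an H3 of −1.34 to −1.11. In the 18 windows before hsr1, a transcription factor gene, the mean of the lowest window was −2.05. By position, the median of the regions was −0.0014 between divergent genes, −0.35 between tandem genes, −1.43 between convergent genes and 0.06 inside genes.

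Depleted regions were largely the same in −N and +N. Lists of the lowest 5% of windows made from the −N mean and from the +N mean shared 1472 of 1861 windows (79.1%), and 83.2% of the −N regions and 82.0% of the +N regions held a shared window. The lists of slide 1 and slide 2, each a mean over both conditions, shared 76.6%. Single arrays shared 71% between the −N replicates and 66.6% between the +N replicates, and 66.0% to 78.0% between a −N and a +N array. Arrays of different conditions thus shared about as much as replicates did, and replicates were on different slides. The 389 windows in the −N list only had a median percentile of 6.57 in +N, and the 389 in the +N list only a median percentile of 6.87 in −N, that is, just outside the limit.

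The level of H3 in the depleted windows did not separate the conditions. Their median averaged −1.42 ± 0.29 for +N and −1.30 ± 0.06 for −N (SD, n = 2 arrays each), which is −0.12 for +N minus −N (exact permutation test, two-sided, p = 1, where 0.33 is the smallest p that 2 arrays against 2 allow). It was −0.28 on slide 1 and 0.036 on slide 2, and without +N replicate 1 it was 0.080. Over single windows, limma called 0 of the 1861 (0% of all 37227 windows were called, Benjamini-Hochberg adjusted p threshold 0.05), and 135 (7.25%) had an unadjusted p under 0.05, against 2.24% of all windows. With the replicate, which is also the slide, as a block, limma called 33 (1.77%), against 0.14% of all windows. All 33 were lower in +N, on both slides, and lay in 12 regions (over all windows 0.134% were called lower and 0.00537% higher). This fit has few degrees of freedom and takes its spread mostly from all windows. It calls on the mean of the 2 slide differences, which favours the same sign on both slides, so that sign is not separate support. The mean H3 of the same arrays chose the windows, and +N replicate 1, with the widest spread, weighed most in that choice. In 447 windows (24.0%) all 4 pairs of −N and +N arrays went the same way, against 28.4% of all windows, and 47.9% had the same sign on both slides, against 48.1%. A mean difference of at least 2-fold was found in 8 windows (0.430%, against 0.0349% of all), in 3 regions. The root mean square difference of H3 in the depleted windows was 0.42 between conditions and 0.44 between replicates, against 0.28 and 0.30 over all windows.

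The largest of these differences was at nmt1, a gene of thiamine synthesis known as a strongly regulated promoter (chromosome III 1837296–1839294). H3 in its lowest window was −1.09 and −0.94 in −N against −2.65 and −2.03 in +N, so that both +N arrays were lower than both −N arrays. The difference of −1.33 ± 0.22 (SE) was −1.56 on slide 1 and −1.10 on slide 2. Its limma adjusted p was 3.04e-08 with the block and 0.689 without. The SE is that of the fit without the block, as is each ± at a single window below. All 4 windows of the region were called for H3, while H3K4Me3 in the lowest window was −1.25 and −1.55 in −N versus −0.90 and −2.05 in +N, which overlapped. In 1 of the 4 windows H3K4Me3 was called lower with the block, by −0.93 (−0.35 on slide 1 and −1.50 on slide 2). At snoU14, a snoRNA gene of rRNA processing, H3 was −1.04 and −1.73 in −N against −3.13 and −2.16 in +N. The difference of −1.26 ± 0.30 was −2.09 on slide 1 and −0.44 on slide 2 (limma adjusted p = 2.44e-07 with the block, 1 without), and H3K4Me3 was between 1.05 and 1.67 with the conditions overlapping. Without +N replicate 1 the snoU14 difference was −0.78. Where probes not well above background were left out, the differences in the nearest remaining windows, which span more of the surrounding sequence, were −0.34 at nmt1 and −0.29 at snoU14.

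The remaining H3 differences were smaller. Before SPAP11E10.01 H3 was −0.74 on both −N arrays and −2.19 and −0.83 on the +N arrays, so nearly all of the difference of −0.77 lay on slide 1 (−1.45, against −0.09 on slide 2). At SPCC569.07 H3 was −1.61 and −2.15 in −N versus −2.60 and −2.64 in +N, a difference of −0.74 that limma with the block did not call (adjusted p = 0.0611). At tdh1, where 4 of 10 windows were called, the lowest window was at −2.60 and −1.57 in −N against −3.05 and −2.52 in +N, which overlapped. The difference was −0.70 ± 0.30 (SE of the fit without the block), and limma with the block gave an adjusted p of 0.103. In the long region of chromosome II 11 of 28 windows were called, in the dim range given above. Among the 5 largest rises of H3, 2 were at named genes, at gcd1 (above) and at SPAC57A7.05 (−1.52 and −1.42 in −N, −0.99 and −1.32 in +N), and neither was called.

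**Figure D5:**
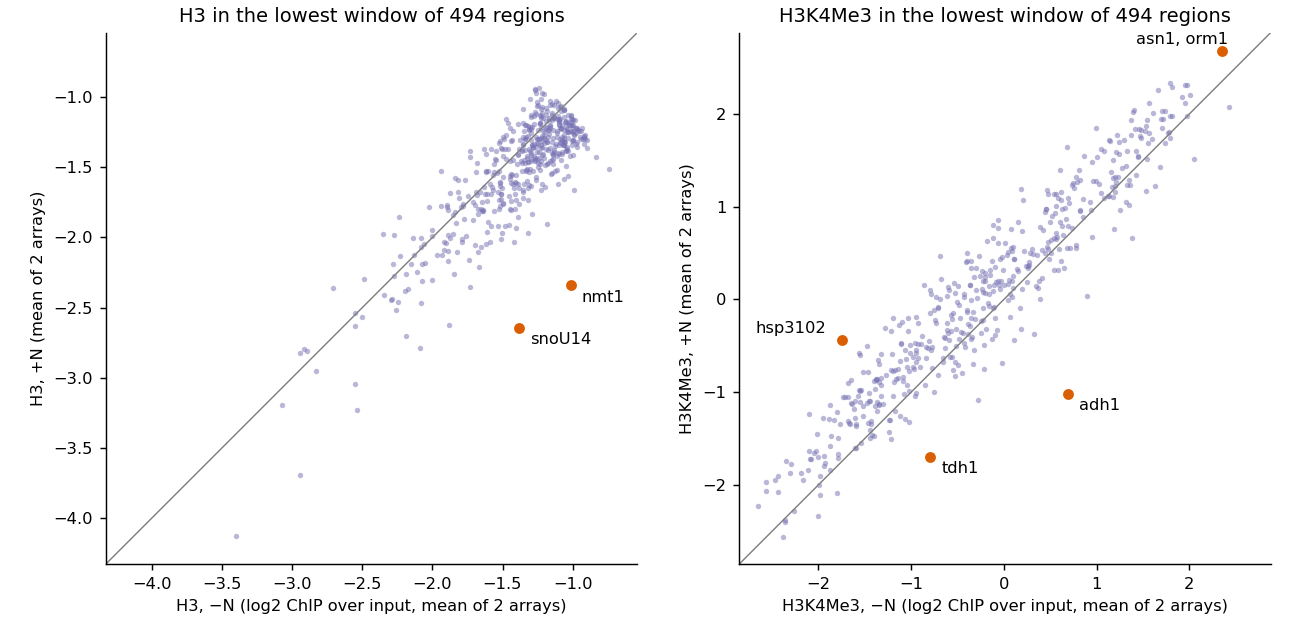
H3 (left) and H3K4Me3 (right) of the lowest window of each of the 494 regions in +N (vertical) against −N (horizontal), each the mean of 2 arrays, as log2 ChIP over input, with the line of equality. For H3, nmt1 and snoU14 lie below the line (differences of −1.33 and −1.26), and for H3K4Me3 adh1 and tdh1 lie below it (−1.71 and −0.90) and hsp3102 above it (1.31).

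H3K4Me3 in the depleted windows was higher in +N on balance. The median averaged −0.17 ± 0.11 for +N and −0.40 ± 0.14 for −N (SD, n = 2 arrays each). The difference of 0.24 was 0.26 on slide 1 and 0.22 on slide 2. Both +N medians were above both −N medians, and the exact permutation test gave the smallest p it can give (p = 0.33, two-sided), so it could not pass 0.05. It ran from 0.14 to 0.34 when 1 H3K4Me3 array was left out and was 0.085 with dim probes left out. Over all windows the difference was 0.011. Limma called 0 of the 1861 windows without the block (0% of all windows), with 156 (8.38%) at an unadjusted p under 0.05 against 4.26% of all windows. With the slide as a block it called 238 (12.8%), against 5.47% of all windows: 195 were higher in +N, against 2.93% of all windows called higher, and 43 lower, against 2.54%. Called falls were thus no more frequent among the 1861 windows than among all windows. The called windows lay in 93 regions, 77 of them higher and 16 lower, and 237 of the 238 had the same sign on both slides. The call rests on the mean of the 2 slide differences, which favours the same sign, so this is not separate support. Called or not, 71% of the 1861 windows had the same sign on both slides, against 63.4% of all windows. In 37.9% all 4 pairs of arrays went the same way, against 33.9%. A mean difference of at least 2-fold was found in 49 windows (2.63%, against 0.833% of all). The root mean square difference of H3K4Me3 in the depleted windows was 0.66 between conditions and 0.65 between replicates. Over all windows these were 0.53 and 0.55, so conditions differed about as much as replicates did, and both differed more in the depleted windows. Replicates were on different slides, so their difference also holds that between slides. The ChIP signal of slide 1 is dim here, with 42.5% (−N) and 36.1% (+N) of the H3K4Me3 ChIP spots of these windows well above background, and the part of this in the difference was not tested. The test of whether H3K4Me3 and H3 changed differently (interaction, limma) called 0 windows without and with the block, against 0% and 0.0295% of all windows. An unadjusted p under 0.05 was found in 143 (7.68%, against 3.82% of all windows) and 515 (27.7%, against 12.6%).

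The 5 largest falls and rises of H3K4Me3 were taken only from regions whose 4 pairs of arrays went the same way. Of the 5 largest falls, 3 were at adh1, tdh1 and eno101. The regions at the 11 genes of glycolysis and ethanol formation did not go one way: windows of 5 were called lower with the block (adh1, tdh1, eno101, fba1 and pgk1), of 1 higher (pdc101) and of the other 5 in neither direction. At adh1, the main alcohol dehydrogenase gene, H3K4Me3 in the lowest window was 0.35 and 1.03 in −N versus −1.35 and −0.68 in +N. Both +N arrays were below both −N arrays, by −1.71 ± 0.37 on average (−1.70 and −1.72 on the slides, limma adjusted p = 1.29e-09 with the block and 0.974 without), and 8 of 11 windows were called. H3 at adh1 was −1.91 and −1.26 in −N against −2.35 and −1.72 in +N, which overlapped. At tdh1, the glyceraldehyde-3-phosphate dehydrogenase gene, H3K4Me3 was −1.05 and −0.54 in −N versus −1.47 and −1.92 in +N, a difference of −0.90 (block adjusted p = 0.00794). At eno101 it was −0.29 and −0.28 in −N against −0.80 and −1.37 in +N (difference −0.80, block adjusted p = 0.0209). Groups did not overlap at tdh1 or eno101, as the ranking required. H3 was called lower as well in 4 of 10 windows at tdh1 and 2 of 13 at eno101 (median H3 difference of the called windows −0.98 and −0.96). The called H3K4Me3 windows were 3 of 11 at fba1 (median −1.05) and 3 of 10 at pgk1 (median −0.96, −1.79 on slide 1 and −0.23 on slide 2). At pdc101 8 of 15 windows were called, with a median of 0.87 (0.77 and 0.91 on the slides). A region at the other end of adh4 had 2 of 3 windows called higher (median 1.04), while in the lowest windows at the 5′ ends of adh4 and hxk1 the differences were 0.48 and 0.52 and were not called (block adjusted p = 0.219 and 0.176). The window at meu10, a gene of spore wall formation, and cbf12 changed by −0.71, and that at lcl3, snu5 (U5 snRNA) and mrps26 by −0.85. The eno101 value was −0.024 with 3-probe windows, and that at tdh1 −0.34 with single probes. Where dim probes were left out, the change in the nearest remaining window was −1.28 at adh1, −1.12 at tdh1 and −1.64 at eno101. Limma without the block called none of these.

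Regions with called rises outnumbered those with called falls, 77 to 16. At hsp3102, of the Hsp31 family, H3K4Me3 was −1.95 and −1.54 in −N versus −0.65 and −0.23 in +N, a difference of 1.31 ± 0.32 on both slides alike (1.30 and 1.31, limma adjusted p = 1.91e-05 with the block and 0.974 without). H3 there was −1.21 and −1.33 in −N against −1.89 and −1.02 in +N, with overlap. At the tRNA gene SPBTRNAGLN.04 and SPBC1271.08C H3K4Me3 was −1.07 and −0.29 in −N versus 0.17 and 0.75 in +N (difference 1.15, block adjusted p = 0.000319). At tkt1, the transketolase gene, it was −0.18 and 0.54 in −N against 0.71 and 1.67 in +N (difference 1.01, block adjusted p = 0.00239), and at lsc2, for a subunit of succinyl-CoA ligase, the difference was 1.02 but 0.46 on slide 1 and 1.57 on slide 2. In these the +N arrays were all above the −N arrays, as the ranking required. Of the 77 regions with rises, 52 had mean H3K4Me3 below 0. Over all 494 regions H3K4Me3 was below 0 in 34 of 105 regions of 1 window (32.4%) and 88 of 179 of 2 to 3. The counts were 112 of 168 for regions of 4 to 7 windows and 37 of 42 (88.1%) for those of 8 or more. Whether the rises differ from other regions of the same size was not tested. Where dim probes were left out, the change in the nearest remaining window was 0.38 at hsp3102, 0.21 at tkt1 and 0.16 at lsc2, and with normexp background it was 0.49 at hsp3102.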

How the data were processed

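Immunoprecipitated DNA (red channel) and input DNA (green channel) of 8 samples were hybridised to 2-colour Agilent tiling arrays, in the same orientation on all arrays. The study amplified the ChIP DNA before labelling, which can compress ratios. The authors scanned the arrays with Agilent Feature Extraction 10.7.3.1, and the deposited files hold each spot's processed intensity in both channels, background-subtracted and dye-normalized. The series' value table deposited by the authors holds log2 ratios of the same values to within 5.00e-05.

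From these, log2 red over green was computed for each of the 42641 nuclear probes, which have a median spacing of 265 bp. Probes flagged as outliers on any array (5402, 12.7%) were left out. Values were then centred on the median of the remaining 37239 probes of each array, without loess or quantile steps. Running means of 5 probes were taken within chromosomes. Windows were fitted by lmFit and eBayes of limma 3.58.1 (R 4.3.3, Benjamini-Hochberg over 37227 windows), without a block and with the replicate number, which by the file headers is also the slide and the scan, as a block. Same-numbered arrays deviated together (r = 0.21 for H3 and 0.65 for H3K4Me3 over all windows), so both fits and the values within slides are given. The SE printed at single windows is that of the fit without the block. The block fit leaves 1 residual degree of freedom per window and antibody and draws on the spread of all windows. Other steps used numpy 2.4.6, pandas 2.3.3 and scipy 1.17.1. The number of arrays limits the precision.

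The members and the gene lists were chosen with earlier results of these data known. Genes were named from RefSeq ASM294v3. Which build the probe positions refer to is not given in the sources used here. Probe length followed the reference GC content at the given positions to within 3 bp in 43 of 51 segments, and the 8 others, on chromosome I beyond 3750000, were not annotated. Named genes were those at the 15 regions with the lowest H3, the 10 longest, the 5 largest rises and falls of each antibody among regions whose 4 pairs of arrays went the same way, the 5 highest and lowest in H3K4Me3, and list genes in a region. The window counts at fba1, pgk1 and pdc101, the second adh4 region and the 12 H3 regions were looked up after their values were seen.

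Alternatives were other backgrounds, normalization, window sizes, limits, spot filters, array weights and leaving out each array. The normexp alternative used median signals.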

Additional observations from a re-analysis of the deposited data

How the results depend on the processing

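Of 589 values recomputed under the alternatives, 527 were judged the same, 43 moved, 16 passed the threshold only under the alternative and 3 reversed. The rule differed by kind of value. Counts had to stay of similar size, and shares and levels within the spread or interval of the main value. Median differences over the windows had to keep their sign, and tests at single regions their sign and side of the threshold. With the replicate block, limma called 33 (H3) and 238 (H3K4Me3) of the 1861 windows, against 0 without it, and the H3 count was 3 with quantile normalization. Leaving out 1 array gave 0 to 104 windows for H3, with the most without H3 +N replicate 2, and 0 to 3 for H3K4Me3. The median H3 difference reversed to 0.016 with quantile normalization, where that on slide 1 for windows chosen on slide 2 was 0.036, and ran from −0.33 to 0.080 when 1 array was left out, the highest without H3 +N replicate 1. The overlap of the −N and +N lists was 69.2% to 79.1% without 1 array, 71.7% for single probes and 70.7% with dim probes left out. The number of regions was 1861 for single probes, 116 for the lowest 1%, 873 for the lowest 10% and 263 with dim probes left out, and the share between divergent genes was 42.1%, 42.3%, 45.9% and 37.6%. The median H3K4Me3 of the windows minus that of all windows (−0.66, mean of arrays) was −0.45 with normexp, −0.52 for 3-probe windows, −0.23 for single probes, −1.50 for the lowest 1%, −0.17 for the lowest 10% and −0.26 with dim probes left out. The input difference (0.030) was 0.22 with normexp, 0.10 with background-subtracted signals, 0.13 for single probes and 0.22 with dim probes left out. Glycolysis genes at a region numbered 7 for the lowest 1% and 6 with dim probes left out, and promoters with TATAAA were 54.7% for single probes, 53.1% for the lowest 1% and 53.6% with dim probes left out. At the long region of chromosome II the H3 difference reversed to 0.024 with dim probes left out. The cause of these was not tested. Leaving out dim probes kept 14743 windows and removed the spots with the least ChIP signal first.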
